A study of Mus musculus with 8 samples.

Results

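The genes described here encode the chaperonin CCT, also called TRiC: Tcp1, Cct2, Cct3, Cct4, Cct5, Cct6a, Cct7 and Cct8. The 8 genes were taken by name, and each was followed over its gene body, the longest protein-coding transcript in GENCODE release M21 on the mouse build mm10. By that rule 7 of the 8 had a body. The annotation types Cct6a as a processed transcript. The assembly has an unsequenced stretch inside that gene, and its longest transcript was used with the unsequenced bases removed. Among 16344 protein-coding genes with at least 4 exons, 8769 lay in H3K36me3 peaks over 10% or more of the body in 1 library or more. These are the marked genes. The 7 annotated members were among them, and all 8 members were covered over at least 10% in every library.

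The study asked how H3K36me3 changes when fibroblasts are reprogrammed with and without vitamin B12. The cells were i4F MEFs, primary mouse embryonic fibroblasts with a doxycycline-inducible cassette for OCT4, SOX2, KLF4 and MYC (OSKM), from a single E13.5 embryo labelled Clone 1, collected at 72 h. The groups were MEF (no doxycycline, no added B12), MEF B12 (2 µM B12 alone), OSKM (1 µg/ml doxycycline) and OSKM B12 (1 µg/ml doxycycline and 2 µM B12). The doxycycline dose is the one in the sample labels, and the methods of the study give it in mg/ml. The extraction text of the labels spells the antibody target H3K3me3, while the study names the mark H3K36me3, which is used here. The cassette was present in every group, and doxycycline itself cannot be told apart from the factors that it induces. Each group had 1 H3K36me3 library and 1 input library, so that no value has a replicate check, no test of a condition was possible and no p-value is given.

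CCT is a cytosolic folding machine of stacked rings. Each ring holds a single copy of every subunit, so the subunits are needed in equal amounts. Newly made actin and tubulin are its best known clients, handed over in part by prefoldin, and fibroblasts make much of both. The mark H3K36me3 is laid down by SETD2, which travels with elongating RNA polymerase II, so it lies along the bodies of transcribed genes and increases towards their 3′ ends. The subunits share an ATPase fold but the genes lie on different chromosomes and differ in length.

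The H3K36me3 libraries held between 29046913 and 33399267 tags after duplicates were removed and between 65473 and 69420 peaks on the assembled chromosomes. Values for the 4 libraries are given in the order MEF, MEF B12, OSKM, OSKM B12 unless a library is named. The authors' pileup, the mean number of extended fragments over the bases of a peak, was divided by the library's tags in units of 1000000 (scaled pileup). The density of a gene is the scaled pileup summed over its bases in peaks and divided by the length of its body, which makes it a level per length. Every base of a peak carries that peak's mean, and bases outside peaks count as 0. The OSKM library stood apart. The median marked gene was covered over 30.4% in OSKM and over 50.3% to 54.6% in the others, at a median density of 0.141 against 0.286 to 0.357. Of 8 fibroblast markers, 7 were covered over at least 10% in every library, with Twist1 at 0, and their summed density was 4.72, 5.23, 2.91 and 5.42. The epithelial markers Epcam, Cdh1 and Krt8 and the endothelial markers Pecam1 and Cdh5 were at 0 in all 4 libraries, and Kdr had a density of at most 0.00277. Csf1r, listed as a macrophage marker, was covered over 12.6% to 33.7%, with Ptprc at 0 and Adgre1 at 3.69% or less. Among neural markers, Sox10 was at 0, Elavl3 at 1.94% or less, and Tubb3 was covered over 25.1%, 31.7%, 0% and 25.6%. None of the pluripotency markers Nanog, Esrrb, Dppa4 and Zfp42 reached 10%. The part of cell composition in the results was not tested, and neither was the yield of the immunoprecipitation in each library. Fewer cells with the mark, less mark per cell and a weaker immunoprecipitation in the OSKM library cannot be told apart. Both comparisons that use the OSKM library carry this limit. Because bases outside peaks count as 0, bases that fall below the peak cut-off lower the density further.

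The CCT genes were among the most densely marked genes in every library. Between 51.4% and 92.0% of each body lay in peaks, so the peaks took up most of every member in every library. The median covered share of the 8 genes was 79.8%, 80.8%, 66.9% and 78.0%. Their densities lay above those of 78.6% to 98.4% of the marked genes in MEF, 81.8% to 99.0% in MEF B12, 80.9% to 99.3% in OSKM and 84.9% to 97.5% in OSKM B12. By covered share 2 members ranked lower. Cct7 lay above 61.5%, 59.4%, 74.3% and 68.5% of marked genes and Cct5 above 67.0%, 61.9%, 81.6% and 65.9%. The other members lay above 72.4% or more. Their most enriched peaks also stood high in the lists, above 92.4% to 99.3% of all peaks of MEF by fold enrichment and above 89.9% to 99.7% of those of OSKM. Marked genes of 40 kb and over had a median covered share of 34.3% in MEF, against 53.7% to 61.5% in the shorter classes, and the members have bodies of 8.69 to 24.7 kb. Among marked genes of the same length class, 7 of 8 members exceeded the upper quartile of density in MEF, MEF B12 and OSKM, and all 8 did in OSKM B12. Fewer members exceeded the upper quartile of covered share in each library. In OSKM B12 these were 1 of 2 members under 10 kb, 2 of 5 from 10 to under 20 kb, and Cct3.

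**Figure D1:**
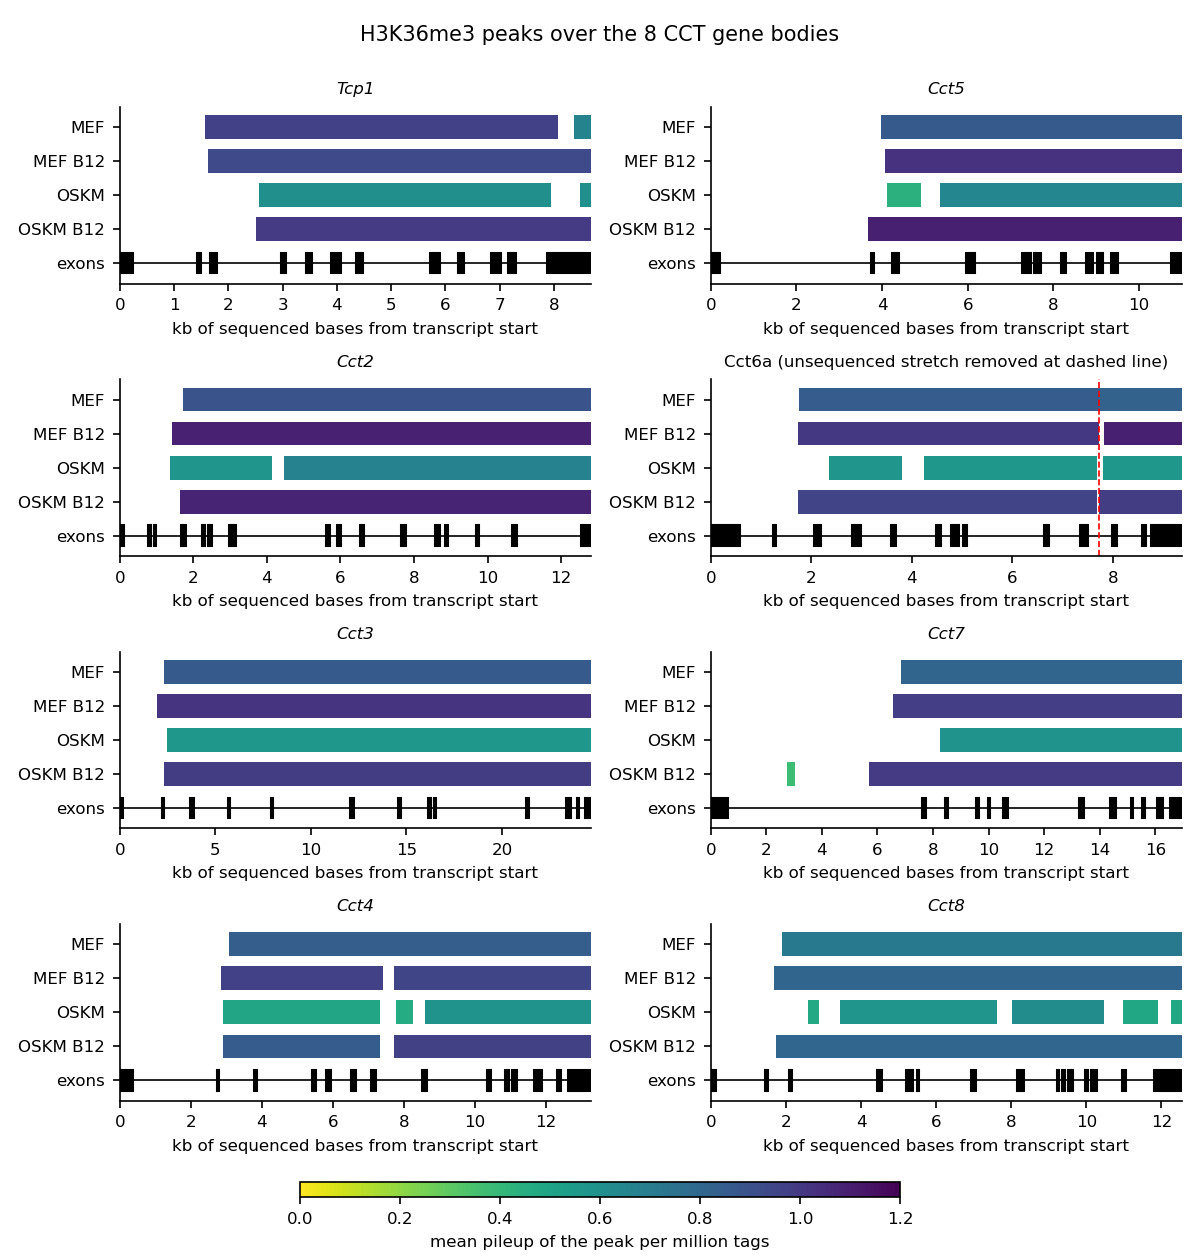
Peaks over the 8 gene bodies, drawn from the transcript start (kb of sequenced bases, horizontal) with 1 row for each library, coloured by the scaled pileup of the peak, the exons in black below and, for Cct6a, a dashed line where the unsequenced stretch was removed. In each gene the peaks begin some distance inside the gene and run to its end. OSKM has the lightest main peaks and 19 peaks in all, against 10 in MEF.

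Subunits needed in equal numbers carried unequal densities. The highest density was 1.62 times the lowest in MEF, 1.61 times in MEF B12, 1.88 times in OSKM and 1.41 times in OSKM B12. Cct2 and Cct3 held the top 2 places in all 4 libraries and Cct7 the last. Each density carries a 95% exact Poisson interval from the estimated number of fragments behind it, which covers counting error only. With these intervals, no neighbours in the order of MEF were apart. In MEF B12, OSKM and OSKM B12 the step from the top pair to Cct6a was wider than the intervals, and in OSKM so was the step from Cct5 down to Cct7. Inside peaks the members were closer together. There the scaled pileup of the 8 genes differed by at most 1.34 times in MEF (0.714 to 0.961) and 1.21 times in OSKM (0.538 to 0.648). In MEF B12 the ratio was 1.34 and in OSKM B12 it was 1.36, hardly smaller than that of density there. The lowest value in MEF, MEF B12 and OSKM B12 was that of Cct8, whose peak there ran on over the gene Usp16. The next lowest in these libraries were 0.811 (Cct7), 0.932 (Tcp1) and 0.919 (Cct4). The members were above the upper quartile of the marked genes in MEF (0.679), MEF B12 (0.777) and OSKM (0.521), and so were 7 of the 8 in OSKM B12 (0.8097), where Cct8 was at 0.8046.

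**Figure D2:**
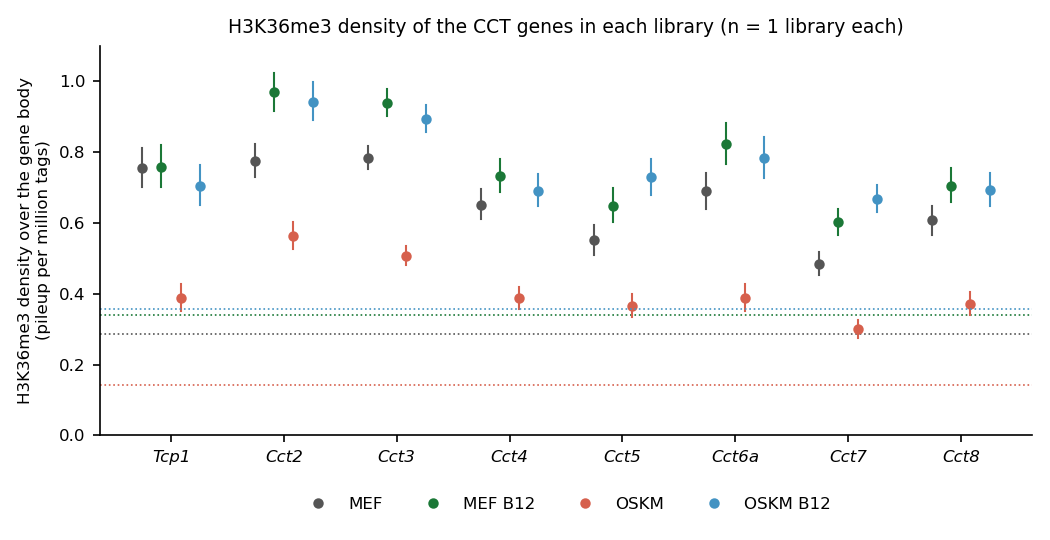
H3K36me3 density of each CCT gene (vertical, pileup per 1000000 tags over the gene body) in the 4 libraries. Points are single libraries with 95% exact Poisson counting intervals, and dotted lines are the medians of all marked genes in the same colours. OSKM is the lowest library for every member, and all points lie above the median of their own library.

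The subunits of the side of the ring that binds ATP strongly are Tcp1, Cct4, Cct2 and Cct5. Tcp1 (the alpha subunit, chromosome 17, 12916382 to 12925067, plus strand, 12 exons) is the shortest body. Its density was 0.753, 0.758, 0.387 and 0.705. OSKM was well below the others, which lay close together. The covered share was 78.4%, 81.3%, 64.3% and 71.0%. Cct4 (delta, chromosome 11, 22990519 to 23003780, plus strand, 14 exons) had densities of 0.651, 0.733, 0.387 and 0.690. Its covered share hardly moved, from 72.0% in OSKM to 76.9% in MEF, and the lower density of OSKM went mostly with a lower pileup inside peaks, 0.538 against 0.847 in MEF.

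Cct2 (beta, chromosome 10, 117051001 to 117063814, minus strand, 16 exons) overlaps no other annotated gene. Its density was 0.774, 0.968, 0.562 and 0.941, the highest of the members in each library except MEF, where it stood next to Cct3. The share of the body in peaks was between 86.6% and 89.0% in all 4 libraries, OSKM included. Cct5 (epsilon, chromosome 15, 31590800 to 31601804, minus strand, 11 exons) was sparser. Between 58.6% (OSKM) and 66.6% (OSKM B12) of its body was covered, and its density was 0.551, 0.648, 0.365 and 0.728. Of the members it had the largest ratio of OSKM B12 to MEF B12, 1.12, with counting intervals that overlap.

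The weakly ATP-binding side is made of Cct3, Cct6a, Cct7 and Cct8. Cct3 (gamma, chromosome 3, 88297116 to 88321767, plus strand, 14 exons) is the longest body, at 24.7 kb. It was the most completely covered member in every library, by a single peak each time that held 22194 bases of the body in OSKM and up to 22690 (92.0%) in MEF B12. The density was 0.783, 0.939, 0.507 and 0.893. Nearly the same stretch was called in OSKM and MEF, at a scaled pileup of 0.563 and 0.865.

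Cct7 (eta, chromosome 6, 85451514 to 85468475, plus strand, 12 exons) had the lowest density of the members in each library, 0.484, 0.601, 0.2998 and 0.6675. Its covered share was 59.7%, 61.2%, 51.4% and 68.3%. Inside peaks its scaled pileup in MEF, 0.811, was the lowest but for Cct8 (0.714), whose peak ran on over Usp16. In OSKM it lay among the other members, at 0.584. The low density went with an uncovered 5′ part of the gene. In OSKM B12 a separate peak of 306 bases lay within intron 1, at a fold enrichment of 2.35 and a −log10 q of 1.65. No peak was called there in the other libraries.

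Cct8 (theta, chromosome 16, 87483326 to 87495873, minus strand, 15 exons) had densities of 0.606, 0.705, 0.372 and 0.694. In MEF, MEF B12 and OSKM B12 a single peak of 34763, 35524 and 34828 bases ran through the whole 3′ part of Cct8 and on over Usp16, a deubiquitinase gene that ends against it from the other strand. Only 30.6% to 31.1% of the bases of those peaks lay in Cct8, so its pileup there is a mean over both genes. In OSKM the long peak was absent and 5 shorter peaks touched Cct8, the longest of 4165 bases. The covered share of Cct8 was 84.9%, 86.7%, 65.0% and 86.2%, and that of Usp16 was 84.4%, 86.2%, 58.1% and 84.0%.

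Cct6a (zeta, chromosome 5, 129786998 to 129846371, plus strand, 13 exons) spans 59374 bases, of which 50000 are an unsequenced stretch in intron 10, from 129794711 to 129844710. Exon 10 ends 211 bases before the stretch and exon 11 begins 259 bases after it. With those bases removed the body is 9374 bases long and its density was 0.688, 0.822, 0.387 and 0.782. The mark reached the stretch from both sides. In OSKM and OSKM B12 the last peak before it ended 30 and 32 bases upstream of its first base, and the next began 100 and 14 bases after its last. In MEF both peaks reached into it. The scaled pileup was alike on the 2 sides, 0.854 before and 0.828 after in MEF, and 0.564 and 0.559 in OSKM. With the unsequenced bases counted as body, the covered share of Cct6a would read 12.8% in MEF and 10.9% in OSKM in place of 81.2% and 68.8%.

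The mark began within about 1 kb of the same place in every library for 7 of the 8 genes, near the first exons. In MEF the first base in a peak lay between 1.56 kb (Tcp1) and 6.83 kb (Cct7) from the transcript start, in intron 1 or intron 2 for 7 genes and in exon 4 for Cct2. Between the libraries it moved by 229 bases in Cct4, 344 in Cct2, 438 in Cct5, 496 in Cct3, 617 in Cct6a, 927 in Cct8 and 1009 in Tcp1. Cct7 was the exception, with a spread of 5518 bases from 2.73 kb in OSKM B12, the small peak, to 8.25 kb in OSKM.

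Exon 2 starts 0.764 kb from the transcript start in Cct2 and 7.60 kb from it in Cct7, the extremes of the group. In MEF the first covered base lay within 0.953 kb of the start of exon 2 in all 8 genes and past it in 7. Exon 2 was the nearest exon start only in Cct3, Cct4 and Cct7. Exon 3, at 1.66, 2.055 and 2.09 kb, was nearer in Tcp1, Cct6a and Cct8, with first covered bases at 1.56, 1.76 and 1.90 kb. In Cct5 exons 2 and 3 were about equally near, and in Cct2 exon 4 was nearest. In OSKM the first covered base lay past the start of exon 2 in all 8, by 0.162 to 1.16 kb. Across the 8 genes the rank correlation of both positions was 0.93 in MEF, MEF B12 and OSKM and 0.81 in OSKM B12. This is a description of 8 genes that share their libraries, and both positions are counted from the same start. Over all marked genes with a peak the rank correlation was 0.68 in MEF and 0.67 in OSKM. Their first covered base lay within 1.5 kb of the start of exon 2 in 54.7%, 55.3%, 44.2% and 54.7%. Among the members this held for 8, 8, 8 and 7. The marked genes were not matched for length here, and 2694 of them are 40 kb and over.

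**Figure D3:**
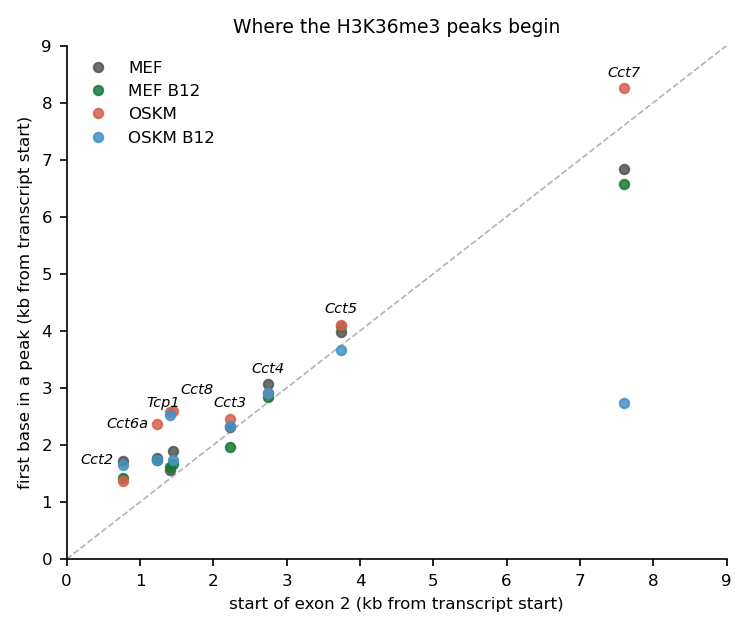
First base in a peak (vertical) against the start of exon 2 (horizontal), both in kb from the transcript start, for the 8 CCT genes in the 4 libraries. The dashed line marks equal positions. The points lie within 1.16 kb of the line except for Cct7 in OSKM B12. There the first covered base was at 2.73 kb and exon 2 starts at 7.60 kb.

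With each body cut into 5 bins of equal length, the uncovered part lay at the 5′ end. In MEF the share in peaks of the bin nearest the start was 0% for Cct4, Cct5 and Cct7, and reached 52.9% in Cct3, the gene with the longest body. In bins 3 and 4 all 8 genes were covered over at least 98.6%. The mean over all marked genes in MEF climbed from 13.2% in the bin nearest the start to 72.1% in the last. In OSKM the bin nearest the start was at 0% in 6 members, and Cct2 (46.4%) and Cct3 (50.1%) were the others. The last bin was at 100% in Cct2, Cct3, Cct4, Cct5 and Cct7. It was 93.2% in Cct6a, 69.7% in Tcp1 and 66.9% in Cct8.

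At the 3′ end the peaks ran past the annotated end in every member and library. In OSKM they did so by 10 bases (Cct2) to 1102 bases (Cct8). In MEF the overrun was 293 bases in Cct6a, 1773 in Cct5, 1804 in Cct7 and 2721 in Cct2. The overrun of Cct8, 24114 bases, is the stretch over Usp16. Tcp1 ends inside Acat3, an acetyl-CoA acetyltransferase gene on the other strand, with 1255 bases shared. The peak of Tcp1 went 2299 bases past its end in MEF and 805 in OSKM. Acat3 itself was covered over 21.2% in MEF and 13.5% in OSKM, and the strand of the mark cannot be read from these data.

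Peaks were broken at more places in OSKM than in the other libraries. Leaving out the unsequenced stretch of Cct6a, there was 1 break between neighbouring peaks inside a member body in MEF, 1 in MEF B12, 2 in OSKM B12 and 10 in OSKM, which fell in 6 genes. Some breaks coincided with sequence that occurs elsewhere in the genome, where a limit of 1 placement per read leaves tags out. The break of Tcp1, in exon 12, spanned 311 bases in MEF, and 220 of these (70.7%) begin a stretch of 75 bases, the length of a tag, with an exact copy in Acat2 on the same chromosome. In OSKM that break was 526 bases long, with 240 such positions. No break was called there in MEF B12 or OSKM B12. Of the 10 breaks in OSKM, 3 held such copies at 10% or more of their positions, in Tcp1, Cct6a (30.5%) and Cct8 (41.4%). The break in intron 7 of Cct4 held none and was called in MEF B12, OSKM and OSKM B12. Positions of this kind make up 2.92% of the body of Tcp1, 2.01% of Cct8, 1.98% of Cct6a and 1.31% of Cct3, and under 1% of the others. Their part in the breaks was not tested.

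No H3K36me3 peak touched the window from 250 bases before to 50 after the start of any member, in any library. The same held for most marked genes, of which 1.85% in MEF and 2.79% in OSKM had a peak there. What the CCT promoters shared was another gene on the far side. In 6 of the 8 genes (75%) a gene on the opposite strand starts within 1 kb, compared with 28.4% of all marked genes. The partners are Mrpl18 beside Tcp1, Tsacc beside Cct3, Fam173b beside Cct5, Psph beside Cct6a, Pradc1 beside Cct7 and the noncoding B130034C11Rik beside Cct8. For 4 of the pairs the starts are so close that a single 300-base window holds both. Those 4 windows are shown here. They are RefSeq windows on GRCm38.p6, written 5′ to 3′ on the strand of the CCT gene, with 250 bases before the RefSeq start of the CCT gene and 50 from it on, and the GC box GGGCGG or its reverse complement in capitals.
Tcp1 with Mrpl18, chr17:12916079-12916378, plus strand: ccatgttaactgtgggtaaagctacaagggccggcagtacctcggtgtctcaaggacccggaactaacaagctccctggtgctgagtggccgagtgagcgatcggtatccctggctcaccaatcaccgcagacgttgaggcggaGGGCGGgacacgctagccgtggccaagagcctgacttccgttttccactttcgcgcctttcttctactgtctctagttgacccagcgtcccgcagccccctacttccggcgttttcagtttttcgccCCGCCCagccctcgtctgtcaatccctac
Cct3 with Tsacc, chr3:88296885-88297184, plus strand: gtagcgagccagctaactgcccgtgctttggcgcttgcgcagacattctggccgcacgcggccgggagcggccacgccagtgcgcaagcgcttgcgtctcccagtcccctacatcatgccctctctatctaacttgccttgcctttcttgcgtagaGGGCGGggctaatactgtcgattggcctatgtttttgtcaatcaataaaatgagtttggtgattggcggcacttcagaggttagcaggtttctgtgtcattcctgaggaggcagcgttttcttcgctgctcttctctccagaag
Cct5 with Fam173b, chr15:31601797-31602096, minus strand: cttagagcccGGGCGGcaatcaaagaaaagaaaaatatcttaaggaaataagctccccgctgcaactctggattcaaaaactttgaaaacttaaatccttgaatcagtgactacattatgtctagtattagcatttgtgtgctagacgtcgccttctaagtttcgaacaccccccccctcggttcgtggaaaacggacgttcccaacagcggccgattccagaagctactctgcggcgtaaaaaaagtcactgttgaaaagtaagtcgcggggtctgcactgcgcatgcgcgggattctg
Cct8 with B130034C11Rik, chr16:87495820-87496119, minus strand: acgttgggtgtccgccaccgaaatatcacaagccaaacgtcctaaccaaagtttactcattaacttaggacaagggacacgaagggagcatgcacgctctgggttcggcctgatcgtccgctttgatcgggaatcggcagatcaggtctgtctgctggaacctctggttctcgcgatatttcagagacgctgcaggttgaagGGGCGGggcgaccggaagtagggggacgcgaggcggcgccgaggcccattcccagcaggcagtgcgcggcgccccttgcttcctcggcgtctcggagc
The starts of the partners lie at base 267 of the window of Tcp1 (Mrpl18), 115 of Cct3 (Tsacc), 245 of Cct5 (Fam173b) and 121 of Cct8 (B130034C11Rik). RefSeq windows were found for 7 members, 9 windows in all, with Cct4 not among them. GGGCGG, read on both strands, was in 8 of the 9 windows, at least 1 for each of the 7 genes, compared with 35.7% of all 32851 windows and 64.9% of those of marked genes. CCAAT was in 4 of the 9 windows, those of Tcp1, Cct3, Cct6a and Cct7, against 38.04% of those of marked genes. The E-box CACGTG was in none, against 10.6%. The motif GAANNTTC was in 1 window of Cct2, against 5.52%. Each motif was counted on its own, so matches of different motifs may share letters, and a match is a description of letters in a window.

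On the far side of those promoters the mark was sparser. Tsacc, a co-chaperone gene of the testis, was covered over 10.9%, 2.04%, 3.01% and 6.38%, beside the almost complete coverage of Cct3. B130034C11Rik had no peak in any library. Fam173b was covered over 11.3% to 19.2% and Psph, a phosphatase of serine synthesis, over 14.9% to 27.9%. Pradc1 was covered over 5.90% in MEF and 29.1% in OSKM B12. Mrpl18, a mitochondrial ribosomal protein gene, was the best covered partner, at 62.5%, 63.3%, 38.6% and 53.4%, and the nearest in level to its CCT gene. In all 6 pairs and all 4 libraries the CCT gene had the larger covered share. Other divergent pairs were not measured, and the members also stood above most marked genes in density. Whether the difference is particular to these pairs was not tested.

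**Figure D4:**
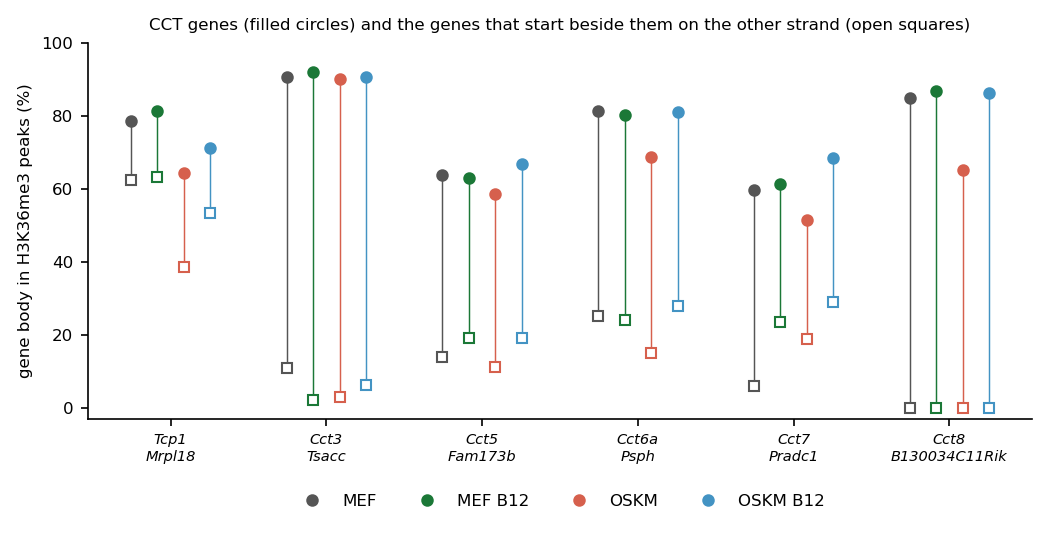
Share of the gene body in H3K36me3 peaks (vertical, %) for the 6 CCT genes with a divergent neighbour (filled circles) and for that neighbour (open squares), in the 4 libraries joined in pairs by lines. Every circle lies above its square.

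The comparison of OSKM with MEF addresses the mark early in reprogramming. All 8 members were lower in OSKM, with a median log2 change in density of −0.62 (0.05 added to both densities) and a range from −0.88 (Tcp1) to −0.43 (Cct2). Beyond 1.5-fold lower were 5 members, Tcp1, Cct4, Cct6a, Cct7 and Cct8, against 68.7% of the 8769 marked genes, whose median was −0.71. The members' share was close to that background, and 6 of the 8 lay above the median. On the bases called in both libraries the ratio of scaled pileup in OSKM to MEF was 0.624 in Tcp1 (95% counting interval 0.548 to 0.710), 0.651 in Cct3 (0.608 to 0.696) and 0.728 in Cct2 (0.664 to 0.798). All 8 intervals were below 1, with Cct8 at 0.801 (0.713 to 0.899). The value of Cct8 sets a mean over the long peak shared with Usp16 in MEF against 5 short peaks at the gene in OSKM, so it cannot be ranked with the others. The intervals are exact conditional binomial ones on estimated fragments and do not include how much cultures or immunoprecipitations vary. When only peaks with a −log10 q of 5 or more were kept, Tcp1 and Cct4 had no peak left in OSKM and the median was −1.34. The marked genes were not measured under that cut-off, so this median has no background beside it.

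The covered bases differed unevenly. The difference, OSKM minus MEF, was −19.9 percentage points in Cct8, −14.1 in Tcp1 and −12.4 in Cct6a, and 0.164 and −0.548 points in Cct2 and Cct3. The median over the members was −6.78 points, and over marked genes −14.2.

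B12 added during reprogramming is the comparison of OSKM B12 with OSKM. All 8 members were higher with B12 and all 8 beyond 1.5-fold, against 95.2% of marked genes. The median log2 change was 0.80, from 0.69 in Cct2 to 1.04 in Cct7, compared with 0.98 for marked genes, and 7 of the 8 members lay below that median. The density ratio was 2.23 in Cct7 and 1.67 in Cct2. On bases called in both libraries the range was narrower. The ratio was 1.75 in Cct3 (1.64 to 1.87) and 1.70 in Cct7 (1.53 to 1.89), and Cct8, with the same unlike stretches, was at 1.41 (1.254 to 1.58). The covered share was larger with B12 in all 8 genes, by 0.390 points in Cct2 and 21.2 points in Cct8. With the same stricter peaks the median was 1.57, again without a value for marked genes, and it rests on the same OSKM library as the comparison with MEF.

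The difference with B12 alone was smaller. In MEF B12 against MEF the median log2 change was 0.23, beside 0.21 for marked genes, and 0 of 8 members were beyond 1.5-fold higher, against 3.44% of marked genes. All 8 were nominally higher, from 0.01 in Tcp1 to 0.30 in Cct2. On bases called in both libraries 7 of the 8 counting intervals lay above 1, as in Cct3 at 1.18 (1.11 to 1.251). Tcp1 was the other, at 0.971 (0.870 to 1.08). MEF B12 against MEF and OSKM B12 against OSKM use different libraries, but each of these libraries also enters 1 of the other comparisons.

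With B12 in both, OSKM and MEF were close. The median log2 change of OSKM B12 against MEF B12 was −0.05 for the members and 0.05 for marked genes. None of the 8 was beyond 1.5-fold in either direction, against 1.31% of marked genes lower and 2.2% higher. On bases called in both libraries all 8 counting intervals included 1, for instance Cct3 at 0.968 (0.912 to 1.03) and Cct5 at 1.06 (0.957 to 1.18). The widest gap in covered share was in Tcp1, 10.3 points lower in OSKM B12, and the next was Cct7, 7.07 points higher.

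**Figure D5:**
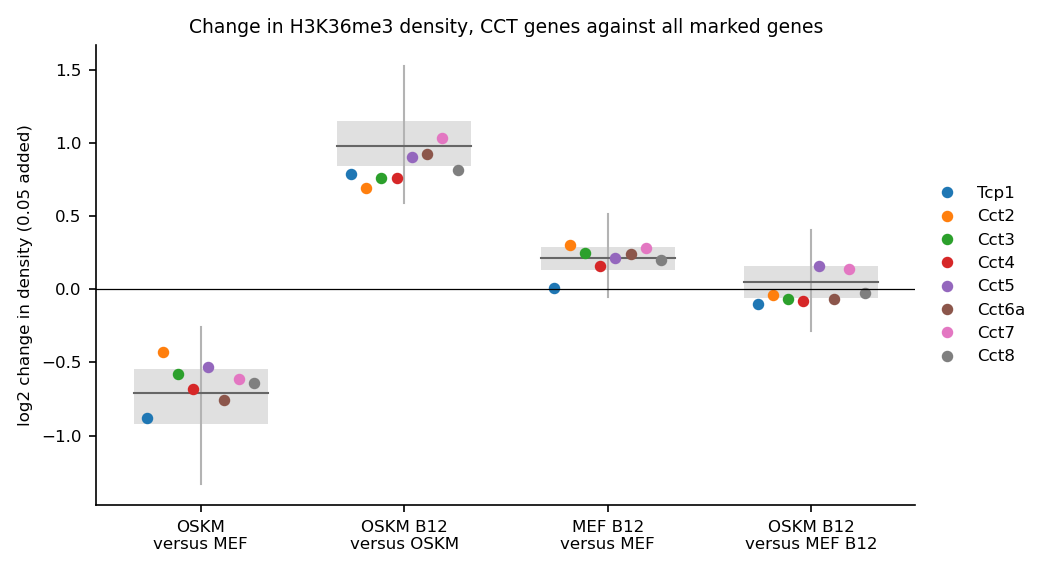
Log2 change in density (vertical, 0.05 added to each density) of the 8 CCT genes in the 4 comparisons, with points for genes. Grey boxes span the middle quartiles of the 8769 marked genes with their median, and grey lines their 5th to 95th percentiles. The members lie below 0 for OSKM against MEF and between 0.69 and 1.04 for OSKM B12 against OSKM, mostly under the median there.

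Most of the listed partners of CCT were less densely marked than the subunits. Of the 6 prefoldin genes, all were marked, 3 were beyond 1.5-fold lower in OSKM than in MEF and 5 beyond 1.5-fold higher in OSKM B12 than in OSKM, with medians of −0.61 and 0.78. Over all marked genes the shares were 68.7% and 95.2%. The summed density of the 6 genes was 0.665, 0.836, 0.303 and 0.976, beside 0.688, 0.822, 0.387 and 0.782 for Cct6a alone, so the sum was the lower in MEF and OSKM and the higher in the libraries with B12. Pfdn5 was covered over 52.1% in MEF, and Pfdn2 over 18.4%. Vbp1 had the largest difference between OSKM and MEF among them, from 46.0% covered to 4.40%. The cofactors Pdcl, Pdcl3 and Txndc9, phosducin-like proteins that bind CCT, were all 3 beyond 1.5-fold lower in OSKM and higher with B12 during reprogramming, as were most marked genes (68.7% and 95.2%). Txndc9 was nearest to the CCT genes in density, at 0.656, 0.771, 0.379 and 0.743.

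Among chaperonin relatives 3 of 7 were marked. Cct8l1 (1 exon), Bbs10 and Bbs12 (2 exons each) could not be, because marked genes have at least 4 exons. Cct6b, a testis paralogue of Cct6a, had no peak in any library, nor had Cct8l1 and Bbs10, and Bbs12 reached at most 9.93%. Hspd1, the mitochondrial chaperonin, was covered over 64.8% in MEF and 59.1% in OSKM. Hspe1, listed as its pair, was covered over 27.5%, 51.6%, 17.4% and 22.4%. The log2 change of Hspe1 was 0.26 for OSKM B12 against OSKM and −1.09 for OSKM B12 against MEF B12. Of the 3 marked relatives, 2 were beyond 1.5-fold lower in OSKM than in MEF, against 68.7% of all marked genes. In OSKM B12 against OSKM, 2 were beyond 1.5-fold higher, against 95.2%. Of 14 clients and tubulin cofactors, 13 were marked, and Tbcc, with 1 exon, could not be. Of the 13, 8 were beyond 1.5-fold lower in OSKM than in MEF, near the 68.7% of all marked genes. In OSKM B12 against OSKM, 12 were beyond 1.5-fold higher, near the 95.2% of all marked genes. Actb was as dense as the top CCT genes in MEF, at 0.780. Tuba1b, at 0.102, was low, and its near-identical paralogues leave that value uncertain.

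The marked genes most like the mean of the CCT genes, by Euclidean distance over log2 density in the 4 libraries (with 0.05 added), were Trim35 (0.0352), Cops8 (0.0358) and Gfpt1 (0.0496). The members themselves lay between 0.139 (Cct6a) and 0.661 (Cct2) from their own mean. Within that largest distance were 1487 of the 8762 other marked genes.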

How the data were processed

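H3K36me3 ChIP–seq and input libraries were made from the same cells, 8 samples in all. The authors aligned reads with Bowtie 0.12.9 (version as in the submitters' processing notes) to mm10 with a limit of 1 placement per read, merged runs, removed duplicates and called broad peaks with MACS2 2.2.6 for each library against its input (q-value cut-offs 0.05 and 0.1). The deposited pileup is a signal, unscaled. The deposited fold enrichment is a ratio to the local input. Significance is given in the deposited lists as the −log10 of the p-value and q-value. Nothing was called on pooled libraries, and reads outside peaks were not used here.

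Peaks were intersected with GENCODE M21 gene bodies (GRCm38, the assembly of mm10) in Python 3.11 with numpy 2.4.6 and scipy 1.17.1. Fragments behind a value were estimated as summed pileup divided by the fragment length of 288 to 292 bases. Log2 changes used a pseudocount of 0.05 scaled pileup, and a change of 1.5-fold was counted. With between 29046913 and 33399267 tags, a gene without a peak has no enrichment detectable at this depth. Stretches of 75 bases with exact copies were found in the RefSeq GRCm38.p6 sequence. The functions were tested on simulated peaks.

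The members and lists were chosen with earlier results of these data known. Named genes were all members, the genes overlapping them or starting within 1 kb, the listed partners and the 3 nearest profiles. Alternatives were other peak cut-offs (a −log10 q of 5, a fold enrichment of 2), equal numbers of peaks, unscaled pileup, other bodies, a pseudocount of 0.01 and thresholds of 2 and 1.25. Leaving out Cct6a and counting its unsequenced bases were added after seeing the data.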

Additional observations from a re-analysis of the deposited data

Results flagged for a closer look

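The covered share of 3 members moved one way with B12 in MEF and the other way during reprogramming, each as a difference between single libraries that was not tested. In Cct4 the difference was −0.648 points for MEF B12 minus MEF and 3.14 points for OSKM B12 minus OSKM. In Cct5 the differences were −0.836 and 8.05 points, and in Cct6a they were −1.01 and 12.2 points. The density of all 3 genes was higher with B12 in both settings.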

How the results depend on the processing

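There was 1 library per condition, so no replicate could be left out, and no paired analysis was possible because each group had a single replicate and no test was run. Of 44 values of the median change under other settings, 38 moved by less than the counting error. Some of the 38 did not move at all, so the count overstates how far the result was probed. A fold enrichment of 2 and equal numbers of peaks left every median as it was. So did the −log10 q of 5 in the comparisons that do not use the OSKM library. Requiring a −log10 q of 5 took the median of the members from −0.62 to −1.34 for OSKM against MEF. For OSKM B12 against OSKM it went from 0.80 to 1.57, and the marked genes were not measured under this cut-off. Under that cut-off Tcp1 and Cct4 had no peak in OSKM, and the median covered share there was 35.5%, while in the other libraries no member moved by 5 points. Relative to the median of all marked genes the change was 0.0834 for OSKM against MEF, −0.18 for OSKM B12 against OSKM and 0.0168 for MEF B12 against MEF. This takes the same constant from every gene and only restates that the members lay nearer to 0 than the marked genes in both comparisons with OSKM, in the first by less than the counting error. Without division by tags the median for MEF B12 against MEF was 0.0795, with 7 members higher and 1 lower. The count of 5 members lower in OSKM became 3 over the 3′ part of the bodies, 0 at 2-fold and 8 at the lower alternative threshold. The count of 8 members higher in OSKM B12 than in OSKM became 1 at 2-fold. Tcp1 was lower, not higher, in MEF B12 on bases called in all 4 libraries, and the direction of 1 member also turned on bases outside other genes. Joining peaks separated by up to 1 kb, the median covered share in OSKM was 75.8% in place of 66.9%. The cause of the changes with the peak cut-off was not tested beyond the lost OSKM peaks. Peak calls carry a depth limit, so a break or an uncovered 5′ end is a stretch below the cut-off and not one without the mark.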
